A study of Mus musculus with 6 samples.

Results

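The 5 genes described here, Mllt3, Mllt1, Aff1, Ell and Ell2, encode subunits of the super elongation complex. They were chosen by name, as every row of the deposited PRO-seq table that carries 1 of these 5 symbols, and each symbol had 1 transcript row, so 5 of the 2744 genes (5 of 3022 transcript rows) are members. PRO-seq maps RNA polymerases engaged in transcription: isolated nuclei are let to transcribe on with biotinylated nucleotides, here for 3 min, and the RNA that took up biotin is pulled out and read. The cells were cKIT+ bone marrow progenitors of female C57/BL6 mice that were Mllt3 flox/flox and Rosa26Cre+. They were transduced with wild-type MLLT3 (WT, 3 libraries) or with MLLT3 K63E K67E (the double mutant, DM, 3 libraries) and sorted. They then grew for 8 days in methylcellulose with gentamycin, the cytokines mIL-3, mIL-6, mIL-11, mGMCSF, mSCF, mFlt3L, hEPO and hTPO, and 200 nM 4-hydroxytamoxifen, given to delete the endogenous Mllt3, so both groups carry the floxed alleles, the recombinase and an added MLLT3. No group kept its Mllt3 without an added copy, all 6 libraries are in batch 1, and the labels do not say whether replicates came from separate animals, so p-values measure only the spread between these libraries.

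The super elongation complex joins P-TEFb, the kinase that phosphorylates paused RNA polymerase II and its pausing factors, to proteins that keep polymerase moving. AFF1 (also AF4) is the scaffold on which the others assemble, ELL and ELL2 are related factors that raise the elongation rate, and MLLT3 (AF9) and its close relative MLLT1 (ENL) bring the complex to acetylated or crotonylated histones through a YEATS domain. Much of the cell's P-TEFb is held inactive by the 7SK RNA. Several of these genes are fusion partners of MLL in leukaemia, and MLLT3 is known as a regulator of blood stem and progenitor cells. By its title, the series treats the YEATS domain of MLLT3 as a reader of both histone marks and the 7SK RNA. The comparison here asks how polymerase over the complex's own genes differs between cells with the mutant and cells with the wild-type reader.

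For each transcript, reads were deposited for a head window of 330 bp, which begins 30 bp before the transcript start and holds polymerase near the promoter, and for the body, the rest of the transcript with its introns. Rows are present only for bodies with an adjusted p-value under 0.05 (at most 0.0498) by the test of the authors' deposited table. A body difference of these genes is therefore given as a description: it is the measure by which rows came to be in the table. Heads are separate reads, but the head to body ratio has the selected body as its denominator, so its tests and ranks, like the shares and paralog ratios of bodies, are not independent of that selection. Library totals ran from 15112853 (WT replicate 2) to 22981603 reads, and values are given as reads per 1000000 of that total (RPM), or per kb as well (RPKM) where genes are compared. Of 14 stem and progenitor markers, 11 had rows, with a summed body level of 4622 to 5821 RPM in WT and 3199 to 3331 in DM, Kit among them (9 of the 10 tested were lower and 1 higher, beside 42.1% and 57.4% of all genes tested). Of 19 myeloid markers 10 had rows (316 to 412 RPM in WT, 772 to 902 in DM; 9 were higher and 1, Ctsg, lower), of 9 mast and basophil markers 4 (1447 to 2592 and 1108 to 1184), of 13 erythroid and megakaryocyte markers 4 (197 to 223 and 107 to 125) and of 12 lymphoid markers 1, Il7r (18.8 to 28.5 and 56.0 to 71.5). No marker with a row was at 0 in all libraries, and the others were not analysed here. The rows held are 22.5% of the 13408 rows that the authors ranked. These lists moved with the groups beside every difference below, their part in it was not tested, and a different share of cells of a type cannot be told apart from a different level per cell. WT libraries differed from each other more than DM libraries did. Chi-square per degree of freedom of body counts between libraries of a group was 25.6 to 40.4 in WT and 2.67 to 6.87 in DM. Mast and basophil markers summed to 2592 RPM in WT replicate 3, against 1782 and 1447 in WT replicates 1 and 2. WT replicate 3 also held the highest Mllt3 body and head levels. WT replicate 2 had 23.7 head reads per 100 body reads over all genes, against 12.7 to 14.9 in the other 5 libraries, and in WT replicate 1 the 4 stromal and endothelial markers with rows (Notch3, Mest, Ccn1 and Cav1, of 14) summed to 36.9 RPM, against 3.80 to 9.99 in the others. The excess lay in Notch3 (20.1 RPM), Mest (9.57) and Ccn1 (6.18). Cav1 was at 1.09 RPM there, beside 0.993 and 1.01 in the other WT libraries and 3.07 to 6.26 in DM.

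Promoters are shown for the letters near which the head reads lie. They are printed for the 3 members whose deposited start lies at or after the RefSeq start (Mllt3, Aff1 and Ell2). For Mllt1 and Ell the deposited transcript begins within the stretch, which is not printed. All 5 members matched the RefSeq promoter table (GRCm38.p6, the patch release of the mm10 build named in the submitters' processing notes). Each stretch is the 250 bases before the RefSeq start closest to the deposited start, 5′ to 3′ on the gene's strand. Capitals mark matches, on either strand, to 10 short motifs searched by letters alone: GGGCGG (GC box), CCAAT (the box of that name), TATAA (likewise), TGACGTCA (cAMP response element) with its shorter form TGACGT (short CRE), CCGGAAG (ETS), CACGTG (E-box), the NRF1 palindrome, AGATAA (for factors of the GATA family) and TGANTCA (AP-1). The positions are chr4:88033408-88033657 (minus strand) for Mllt3, chr5:103753912-103754161 (plus strand) for Aff1 and chr13:75707234-75707483 (plus strand) for Ell2.
Mllt3: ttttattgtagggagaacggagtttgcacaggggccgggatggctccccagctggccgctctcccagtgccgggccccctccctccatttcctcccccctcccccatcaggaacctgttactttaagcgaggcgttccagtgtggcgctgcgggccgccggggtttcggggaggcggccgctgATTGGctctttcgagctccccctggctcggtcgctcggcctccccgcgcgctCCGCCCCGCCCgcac
Aff1: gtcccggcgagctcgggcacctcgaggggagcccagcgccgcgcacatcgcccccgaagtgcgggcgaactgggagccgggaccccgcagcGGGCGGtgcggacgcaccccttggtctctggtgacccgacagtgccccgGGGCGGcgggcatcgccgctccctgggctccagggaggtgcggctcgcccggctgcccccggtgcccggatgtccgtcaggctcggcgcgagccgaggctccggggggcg
Ell2: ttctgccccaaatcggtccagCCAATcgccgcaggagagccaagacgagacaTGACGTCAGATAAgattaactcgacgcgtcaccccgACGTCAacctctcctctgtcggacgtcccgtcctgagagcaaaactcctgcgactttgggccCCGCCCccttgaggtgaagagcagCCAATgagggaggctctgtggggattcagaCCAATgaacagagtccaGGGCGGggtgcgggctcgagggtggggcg
All 5 promoters held the GC box letters, which 32.7% of all 32851 RefSeq promoters hold over the same length. Mllt1 had 7 such matches, Ell 3, and Mllt3, Aff1 and Ell2 had 2 each. CCAAT, held by 33.8% of promoters, occurred 3 times before Ell2 and at 1 place each before Mllt3 and Mllt1. The cAMP response element letters TGACGTCA, held by 1.55% of promoters, occurred before Ell2, overlapped there by an AGATAA match (9.99% of promoters); the shorter TGACGT, held by 6.47%, matched at 3 places before Ell2, of which 2 lie within TGACGTCA. The ETS letters (6.91% of promoters) occurred before Mllt1. TATAA (22.8%), CACGTG (6.02%), the NRF1 letters (3.74%) and TGANTCA (6.75%) occurred before none of the 5. The 250 bases were 61.2% (Ell2) to 78.8% (Aff1) G or C, against a median of 52.4% over all promoters.

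Where the head window lies relative to the RefSeq start differed between the members. For Aff1 the deposited and the RefSeq start were the same base. The window ran from 13 to 343 bp after the RefSeq start for Mllt3, from 57 bp before to 273 bp after it for Mllt1, and from 71 to 401 bp after it for Ell2, so the bases closest to that start are outside the Ell2 head. For Ell the window began 248 bp before the RefSeq start and ended 82 bp after it, and its upstream part overlaps the lncRNA gene Gm51534 on the opposite strand (chromosome 8, 70531806 to 70539529). Whether strand was used in counting is not given in the sources used here, so reads of the pair cannot be told apart in the Ell head.

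Read density in the body set the members in a stable order apart from 2 pairs. In WT it was 2.13 ± 0.138 RPKM for Ell, 1.91 ± 0.0552 for Aff1, 0.945 ± 0.0796 for Mllt1, 0.857 ± 0.113 for Ell2 and 0.321 ± 0.0366 for Mllt3 (SD, n = 3 each). In DM it was 2.63 ± 0.0930 for Aff1, 2.55 ± 0.143 for Ell, 1.45 ± 0.131 for Ell2, 0.800 ± 0.00830 for Mllt1 and 0.228 ± 0.00951 for Mllt3 (SD, n = 3 each). Mllt1 and Ell2 overlapped in WT, where Mllt1 was the higher in 2 of 3 libraries, while in DM Ell2 was the higher in 3 of 3. Ell exceeded Aff1 in 3 of 3 WT libraries, and the pair overlapped in DM. Mllt3, the longest member with a body of 263 kb, had the lowest density of the 5 in every library and lay above 18.4% of the 2744 genes; Ell and Aff1 lay above 74.9% and 73.9%.

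Mllt3 (ENSMUSG00000028496.17; mm10 chromosome 4, 87769925 to 88033364, minus strand) encodes the reader that was deleted and added back. Body reads numbered 1853, 1167 and 2181 in the WT libraries, listed here and below by replicate number, against 1335, 1273 and 1176 in the DM libraries. Scaled to depth, that was 80.6, 77.2 and 95.3 RPM against 58.4, 63.0 and 58.9 RPM. The body level was lower in every DM library than in any WT library (log2 fold change -0.49, SE 0.11). Few reads fell in its head, 70, 49 and 126 for WT against 52, 47 and 58 for DM, which is 3.05, 3.24 and 5.51 RPM against 2.28, 2.32 and 2.90 RPM. The groups did not overlap in head RPM either, but the head difference of -0.66 (SE 0.30) did not pass the threshold (edgeR adjusted p 0.128). It passed without WT replicate 1 (-0.83, edgeR adjusted p 0.0350) and without WT replicate 2 (-0.77, edgeR adjusted p 0.0411), and was -0.33 without WT replicate 3, which holds the highest Mllt3 head. Per 100 body reads, heads numbered 3.78, 4.20 and 5.78 for WT against 3.90, 3.69 and 4.93 for DM, overlapping ranges, and the ratio's log2 change of -0.13 (SE 0.28) was far from the threshold (edgeR adjusted p 0.834). The lncRNA gene Gm34232 (chromosome 4, 87968701 to 87995063) lies inside the body. Which exons the floxed alleles flank is not given in the sources used here, and counts over the whole gene do not separate deleted from undeleted alleles or from the added copy.

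Mllt1 (ENSMUSG00000024212.9; chromosome 17, 56892611 to 56935415, minus strand), which encodes the second YEATS reader of the complex, was also lower in the body in DM. Its WT bodies stood at 40.6, 36.6 and 43.3 RPM and its DM bodies at 33.9, 34.4 and 33.7 RPM, a narrow gap with no overlap (log2 fold change -0.24, SE 0.099). Its head was the least even of the 5 in WT: 146, 322 and 252 reads, or 6.35, 21.3 and 11.01 RPM, against 10.7, 11.7 and 10.5 RPM in DM. The WT libraries lay on both sides of the DM libraries, and the head difference of -0.22 (SE 0.35, edgeR adjusted p 0.698) turned to 0.34 (edgeR adjusted p 0.266) without WT replicate 2. Per 100 body reads there were 15.6, 58.2 and 25.4 head reads for WT against 31.5, 34.1 and 31.2 for DM, with a log2 change of 0.17 (SE 0.39, edgeR adjusted p 0.841) that went to -0.26 without WT replicate 1 and to 0.67 without WT replicate 2.

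Aff1 (ENSMUSG00000029313.18; chromosome 5, 103754162 to 103855322, plus strand), the scaffold gene, had more polymerase in the body and less in the head in DM. Body reads numbered 4518, 2818 and 4474 for WT against 6293, 5334 and 5134 for DM, which is 197, 186 and 196 RPM against 275, 264 and 257 RPM (log2 fold change 0.46, SE 0.089). Head reads numbered 786, 914 and 814 against 672, 662 and 632, which is 34.2, 60.5 and 35.6 RPM against 29.4, 32.7 and 31.6 RPM. The groups overlapped in neither window, though the nearest head libraries, WT replicate 1 and DM replicate 2, were close. The head difference of -0.47 (SE 0.26) did not pass (edgeR adjusted p 0.205) and was -0.16 without WT replicate 2. Heads per 100 body reads were 17.4, 32.4 and 18.2 for WT against 10.7, 12.4 and 12.3 for DM, again apart, with a log2 change of -0.88 (SE 0.28, edgeR adjusted p 0.219). As a description, 4.70% of 2577 genes had a more negative change. Without WT replicate 2 the change was -0.60 (edgeR adjusted p 0.0543). RefSeq places the start of the longest Aff1 model at -61800 bp from the deposited start, so polymerase from that start would also cross this body.

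**Figure D1:**
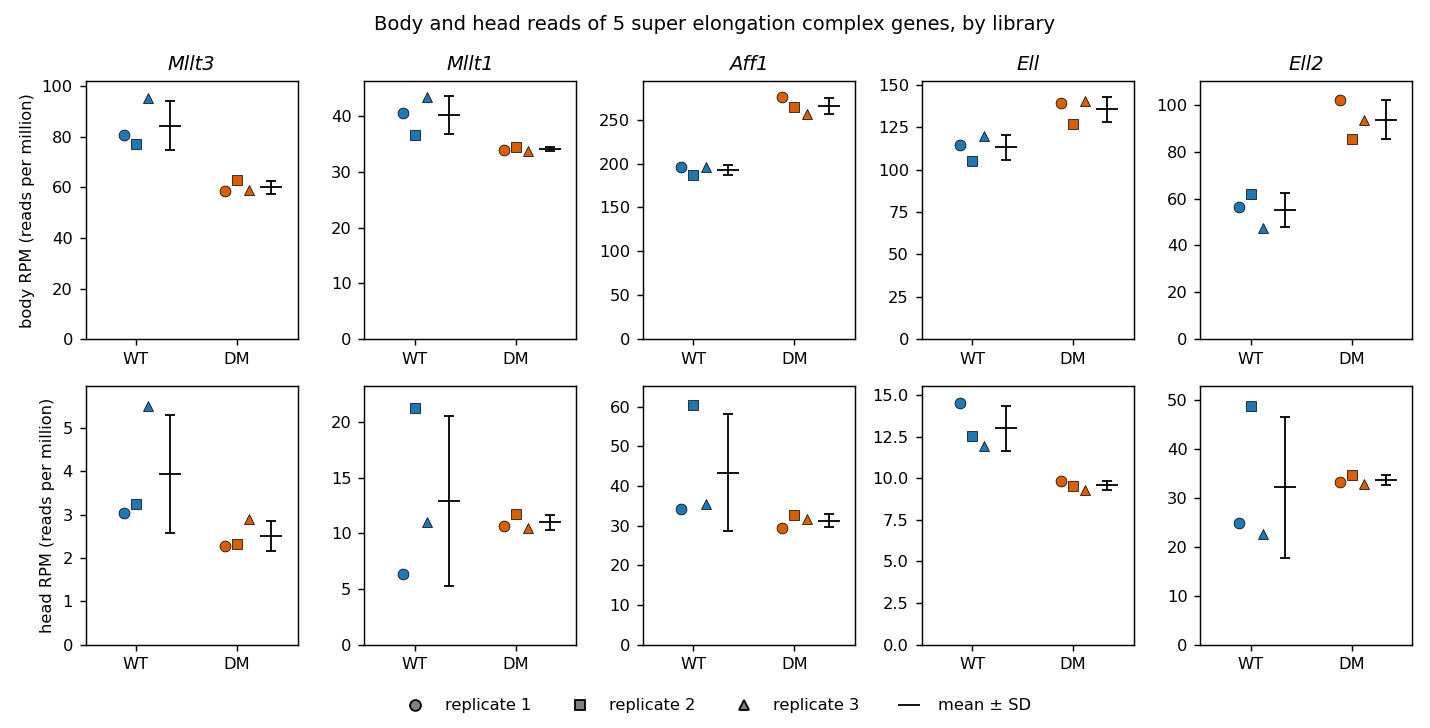
Reads per 1000000 library reads (RPM) in the body (upper row) and the head (lower row) of Mllt3, Mllt1, Aff1, Ell and Ell2 in each library, with the group mean ± SD (n = 3) beside the points and every axis starting at 0. Body values of WT and DM do not overlap for any of the 5 genes, while head values overlap for Mllt1 and Ell2, in both of which WT replicate 2 is the highest library.

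Ell (ENSMUSG00000070002.7; chromosome 8, 70539457 to 70592858, plus strand), an elongation factor gene, showed the same pair of directions with smaller body values. Its body level was 114, 105 and 120 RPM for WT against 139, 127 and 141 RPM for DM (2630, 1591 and 2740 against 3175, 2563 and 2810 reads; log2 fold change 0.26, SE 0.097). Its head level was 14.5, 12.6 and 11.9 RPM for WT against 9.85, 9.55 and 9.31 RPM for DM (334, 190 and 273 against 225, 193 and 186 reads). Both windows were apart between the groups, and in the Ell head, unlike those of Mllt1, Aff1 and Ell2, WT replicate 2 was not the highest library. The head difference was -0.44 (SE 0.24, edgeR adjusted p 0.202) and stayed between -0.50 and -0.36 when any library was left out. Heads per 100 body reads were 12.7, 11.9 and 9.96 for WT against 7.09, 7.53 and 6.62 for DM, a log2 change of -0.70 (SE 0.25, edgeR adjusted p 0.261), which ranged from -0.80 to -0.62 with any library left out.

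Ell2 (ENSMUSG00000001542.7; chromosome 13, 75707585 to 75772364, plus strand), the paralog of Ell, had the largest body difference of the 5. Body levels were 56.3, 61.9 and 47.5 RPM for WT against 102, 85.3 and 93.4 RPM for DM (1295, 935 and 1086 against 2333, 1724 and 1867 reads; log2 fold change 0.76, SE 0.13). Head levels were 24.9, 48.6 and 22.6 RPM for WT against 33.1, 34.7 and 32.8 RPM for DM (572, 735 and 518 against 757, 701 and 656 reads). WT replicate 2 lay above all DM libraries and the other WT libraries below them, so the head difference was 0.07 (SE 0.29, edgeR adjusted p 0.891). Without WT replicate 2 it was 0.50 and passed the threshold (SE 0.14, edgeR adjusted p 0.0117), and without WT replicate 1 or 3 it was -0.08 or -0.13. Ell2 had the most head reads per 100 body reads of the 5, 44.2, 78.6 and 47.7 for WT against 32.4, 40.7 and 35.1 for DM, apart between the groups (log2 change -0.61, SE 0.28, edgeR adjusted p 0.325; -0.35 without WT replicate 2). A small RNA gene, the snoRNA LOC115488213 (75768055 to 75768197), lies in the body.

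**Figure D2:**
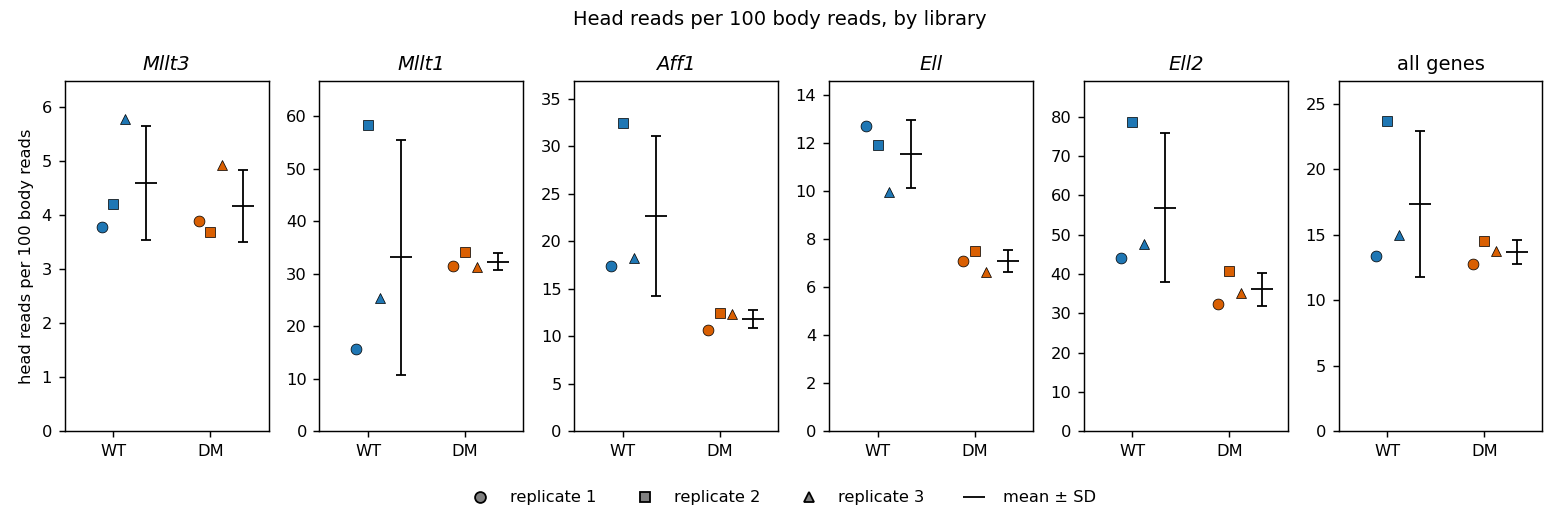
Head reads per 100 body reads for each of the 5 genes and for all 2744 genes summed, by library, with the group mean ± SD (n = 3) and axes starting at 0. For Aff1, Ell and Ell2 every DM library lies below every WT library; for Mllt3, Mllt1 and all genes summed the groups overlap, and WT replicate 2, at 23.7, is the highest library over all genes.

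Set against the table as a whole, the body calls were fixed by the selection of rows, and no member passed for the head or the ratio. For the body, 3 members were higher and 2 lower past the threshold (edgeR adjusted p under 0.05, library totals as scale), beside 99.5% of the 2721 genes tested (57.4% higher, 42.1% lower). The median body log2 fold change was 0.26 for the members and 0.40 for all genes tested. All 5 bodies were apart in RPM, 3 higher (beside 57.3% of genes) and 2 lower (beside 38.3%), 95.6% in either direction. For the head, 0 of 5 members passed, beside 20.3% of 2579 genes (9.62% higher, 10.7% lower), and at an unadjusted p under 0.05 there was 1, Mllt3, beside 960 of the 2579 genes. Aff1 passed with TMM factors (-0.37, edgeR adjusted p 0.0469) and with DESeq2 (-0.36, adjusted p 0.0487). Head RPM was lower without overlap in 3 members (Mllt3, Aff1 and Ell), beside 23.4% of genes, and higher without overlap in 0, beside 18.1% (41.6% in either direction). The median head log2 fold change was -0.44 for the members and -0.11 for all genes. For the head to body ratio, 0 of 5 members passed, beside 0.0776% of 2577 genes (2 genes); 3 members (Aff1, Ell and Ell2) and 395 genes had an unadjusted p under 0.05, and DESeq2 called none of the 5, the smallest adjusted p being 0.0785 for Aff1. Separate TMM factors for heads and bodies moved the median ratio change of all genes from -0.26 to 0.05, and the members then had -0.57 (Aff1), -0.40 (Ell), -0.30 (Ell2), 0.47 (Mllt1) and 0.15 (Mllt3, whose direction flips), none past the threshold. Heads per 100 body reads were lower without overlap in those 3 members, beside 22.2% of genes, and higher without overlap in 0, beside 3.88% (26.1% in either direction). Aff1 and Ell had a lower mean head and a higher mean body RPM, as had 19.1% of 2577 genes. With 5 members these shares are a description.

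The body values moved with the scale. With TMM factors, which take most of these called rows as not changed, the median over all genes moved from 0.40 to 0.11 and the split of body calls from 1562 higher and 1145 lower to 943 and 1156. The members then had body log2 fold changes of -0.78 (Mllt3), -0.53 (Mllt1), 0.17 (Aff1), -0.03 (Ell) and 0.46 (Ell2), and Aff1 (edgeR adjusted p 0.0611) and Ell (0.693) were not called. With the size factors behind the authors' deposited mean signal the 5 values were -0.51, -0.27, 0.43, 0.24 and 0.73, all called. The direction of the Ell body thus flips with the scale, and those of the other 4 do not in the settings run. Leaving out a library ended the Mllt1 body call for each of the 5 libraries other than WT replicate 2 (edgeR adjusted p 0.0598 to 0.115), and the Ell body call for WT replicate 2, DM replicate 1 and DM replicate 3 (0.0509 to 0.119).

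**Figure D3:**
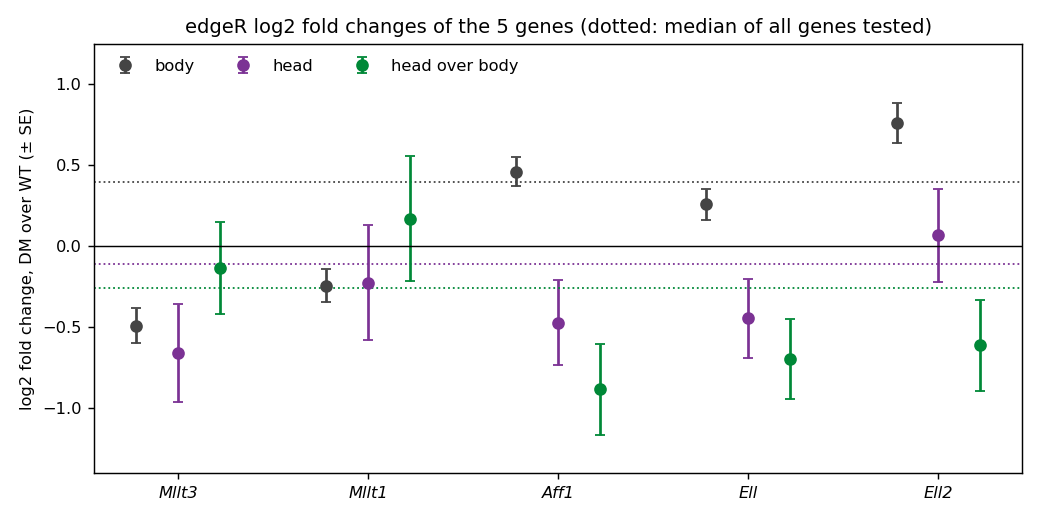
Log2 fold changes, DM over WT, of body, head and head over body for each of the 5 genes with library totals as scale (edgeR; bars are ± SE); dotted lines are the medians over all genes tested, 0.40, -0.11 and -0.26. Mllt3 and Mllt1 lie below 0 in body and head, Aff1 and Ell above 0 in the body and below 0 in the head, and Ell2 has the highest value in both windows; head and ratio values did not pass the threshold.

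Because the library-wide head level differed, each member's ratio was also set against that of all genes in the same library. This takes a library-wide shift out of every gene, also where its own head did not show the shift. On this log2 scale Aff1 stood at 0.38, 0.45 and 0.28 in WT and at -0.25, -0.23 and -0.16 in DM: WT replicate 2 no longer stands apart, and the sign differs between the groups. Ell2 stood at 1.72, 1.73 and 1.67 for WT against 1.35, 1.48 and 1.35 in DM, again tight within each group. Ell was at -0.08, -0.99 and -0.59 for WT against -0.85, -0.95 and -1.06 for DM, Mllt1 at 0.22, 1.30 and 0.77 and 1.31, 1.23 and 1.18, and Mllt3 at -1.83, -2.50 and -1.37 and -1.71, -1.98 and -1.48, all overlapping. The WT replicate 2 ratios of Ell and Mllt3 lay between those of the other WT libraries before this scaling and below them after it. Before it, the Ell ratios were apart between the groups. Of 2577 genes, 14% were lower and 15.2% higher without overlap on this scale, 29.2% in either direction. A two-sided exact permutation test over the 3 against 3 libraries gave p = 0.1 for Aff1 and Ell2, the smallest this design allows. Any groups without overlap give that value here, so it adds nothing to the separation itself. The same permutation test gave p = 0.3 for Ell and Mllt1 and p = 0.7 for Mllt3.

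Shares among the 5 genes are free of the library scale too. Of their summed body RPKM, Mllt3 and Mllt1 together gave less in every DM library: Mllt3 had 4.91%, 4.94% and 5.74% for WT against 2.79%, 3.25% and 2.92% for DM, and Mllt1 15.3%, 14.5% and 16.1% against 10.0%, 10.97% and 10.3%. Ell2 went the other way, with 14.0%, 16.1% and 11.7% for WT against 19.9%, 17.9% and 18.9% for DM, and Aff1 had 31.2%, 31.1% and 30.7% against 34.3%, 35.5% and 33.3%. The share of Ell overlapped between the groups (33.3% to 35.7% in WT, 32.4% to 34.6% in DM). In the heads, Aff1 had 41.2%, 41.4% and 41.0% for WT against 34.5%, 36.0% and 36.3% for DM, and Ell2 26.1% to 33.3% against 37.7% to 38.8%, both apart, whereas those of Mllt3, Mllt1 and Ell overlapped. How often shares within other sets of 5 genes are apart was not computed. Over all genes tested, 95.6% of bodies and 41.6% of heads were apart in RPM.

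Within paralog pairs, the ratio of body reads differed between the groups. These reads are not scaled to length. Per kb, the Mllt3 body stood at 0.321 to 0.355 of the Mllt1 body in WT and at 0.278 to 0.296 in DM. The log2 ratio of Mllt3 to Mllt1 reads was 0.99, 1.08 and 1.14 in WT and 0.78, 0.87 and 0.81 in DM, so the manipulated gene was lower relative to its relative in DM. That of Ell2 to Ell was -1.02, -0.77 and -1.34 in WT and -0.44, -0.57 and -0.59 in DM. Both pairs were apart between the groups, by a mean of -0.25 and 0.51. How often other gene pairs are apart was not computed, and 95.6% of genes had bodies apart in RPM. In the heads both pairs overlapped.

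**Figure D4:**
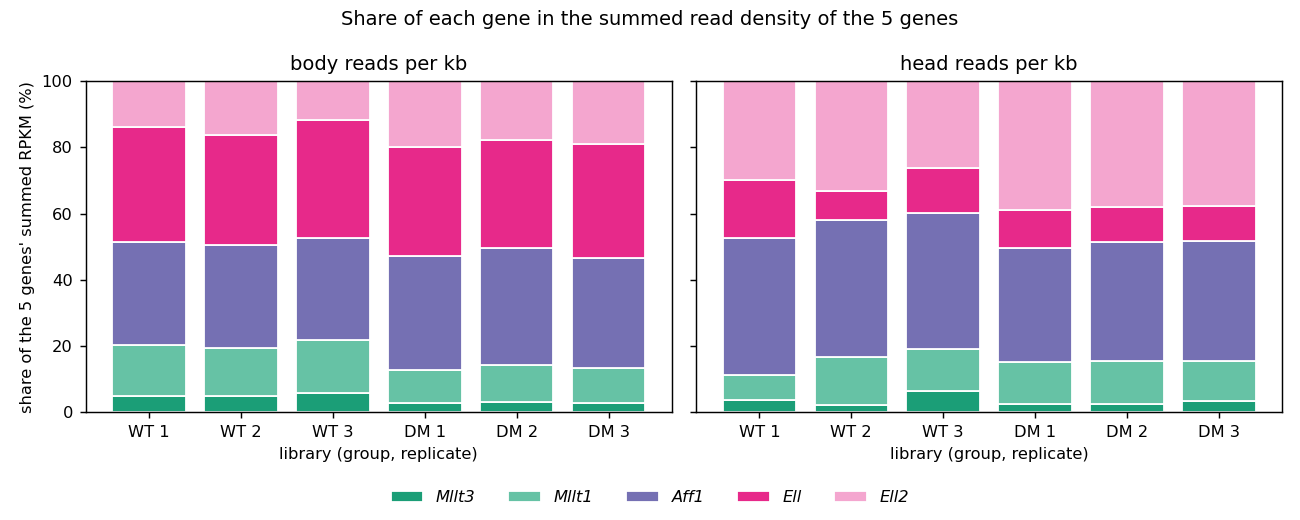
Share of each of the 5 genes in their summed read density (RPKM), body on the left and head on the right, as stacked bars that add up to 100% for each library. In the body the Mllt3 and Mllt1 segments are smaller and the Ell2 segment larger in each DM library than in each WT library; in the head the Aff1 segment is between 41.0% and 41.4% in WT and between 34.5% and 36.3% in DM.

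The authors' deposited percentiles place the merged log2 ratios among 13408 rows, which include the rows held and others not selected by the body. The members themselves were selected by the body, so body percentiles away from the middle follow from that selection. In the authors' deposited table the head of Mllt3 lay at percentile 9.58, Ell at 18.4, Aff1 at 21.3, Mllt1 at 54.7 and Ell2 at 80.7, where 67.3% of the ranked rows had a lower merged head in DM. The bodies lay at 12.7 (Mllt3), 22.1 (Mllt1), 79.6 (Ell), 88.9 (Aff1) and 94.8 (Ell2) in the authors' deposited table. Of the ranked rows, 46.4% had a lower merged body in DM. Merged reads weight deep libraries more and have no replicate error.

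Other genes of the pathway were counted by whether they had a row, which means being called for the body. The 3022 rows held are 22.5% of the 13408 rows that the authors ranked. Whether every listed gene was among the ranked rows is not known. Of the 9 other genes of the complex that were listed (AFF relatives, ELL3, the ELL-associated factors and the P-TEFb subunits), 1 had a row. This was Aff2, an AFF1 relative, whose body stood at 8.00 ± 0.919 RPM for WT against 20.7 ± 1.42 RPM for DM (SD, n = 3 each; log2 fold change 1.37, SE 0.14). Its head reads numbered 4, 4 and 15 for WT against 17, 21 and 28 for DM, a difference past the threshold (1.49, SE 0.50, edgeR adjusted p 0.0495). Of 9 genes of 7SK and P-TEFb control and of 21 pausing and elongation factor genes, 0 had rows. Of 10 partners and YEATS relatives of MLLT3, 2 had rows and both were lower in the body, beside 42.1% of genes called lower in a table where 99.5% of bodies were called. These body differences too are descriptions. Psip1, which encodes a chromatin tether of the MLL complex, stood at 27.9 ± 7.56 RPM for WT against 17.2 ± 1.81 RPM for DM (log2 -0.70, SE 0.19). Bcor, a corepressor gene, had 123 ± 13.4 and 99.0 ± 2.12 RPM (-0.31, SE 0.10). Their heads did not pass (edgeR adjusted p 0.0990 and 0.137). The rest of these lists was not analysed here, since the rows held are those called for the body.

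The genes whose body level followed each member most closely over the 6 libraries were found by the root mean square difference of centred log2 RPM, among 2636 genes with a mean of at least 50 body reads. For Mllt3 these were Leprotl1 (0.022) and Tiam1 (0.039), for Mllt1 Ago2 (0.027) and Kat2b (0.030), for Aff1 Cabin1 (0.023) and Mapkapk2 (0.027), for Ell Klhl2 (0.023) and Rtn3 (0.028), and for Ell2 Iqck (0.053) and Flna (0.058). The median difference to all genes was between 0.35 (Ell2) and 0.49 (Mllt3). The named genes have the smallest of all differences to each member, so pairs of members could hardly be as close. The closest pair of members was Aff1 and Ell (0.12), then Mllt3 and Mllt1 (0.13), and the farthest Mllt3 and Ell2 (0.67). Beside the 2636 genes, Ell would rank 396 for Aff1, and Aff1 234 for Ell. Mllt1 would rank 287 for Mllt3, and Mllt3 218 for Mllt1. Ell2 would rank 1879 for Mllt3, and Mllt3 1904 for Ell2. The measure compares library profiles, which include what libraries share.

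**Figure D5:**
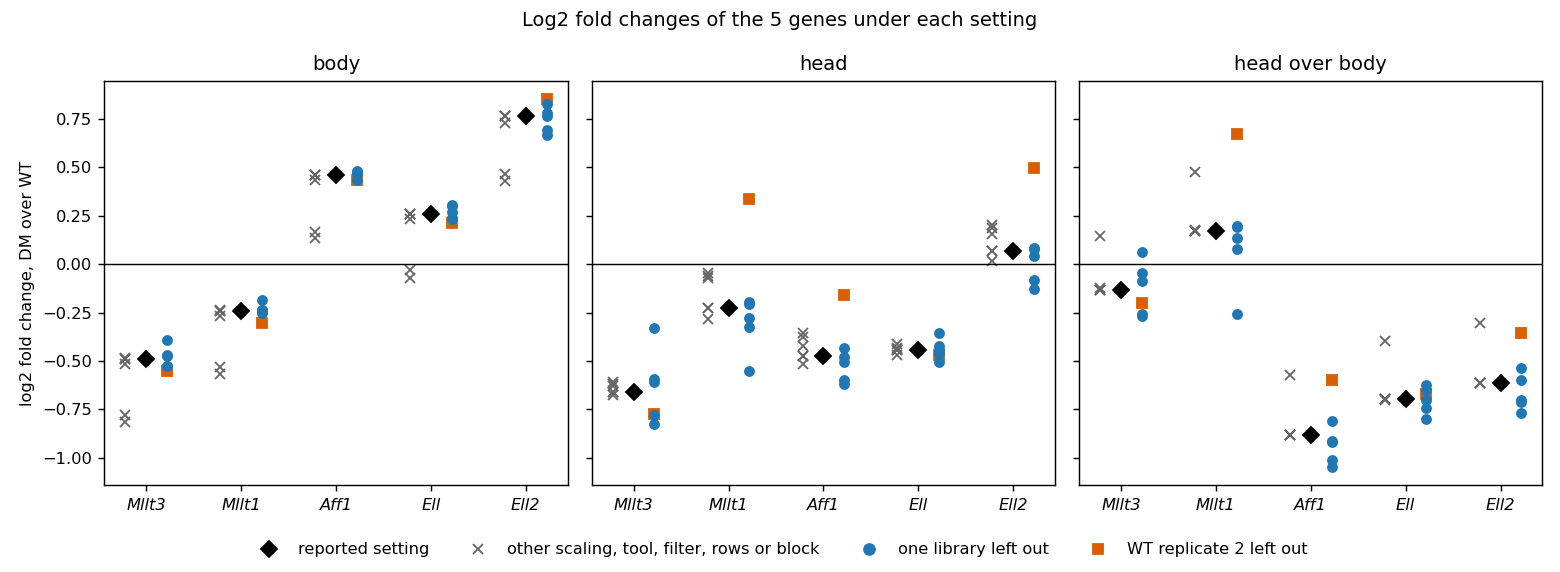
Log2 fold changes of the 5 genes for body, head and head over body under the reported setting (diamonds), other scalings, tools, filters, rows or the block (crosses) and with a library left out (circles; squares are without WT replicate 2). Body values of Ell cross 0 under 2 scalings, and head values of Mllt1 and Ell2 and ratio values of Mllt3 and Mllt1 lie on both sides of 0.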

How the data were processed

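The table was deposited by the authors with, for each transcript and library, whole-number read counts of head and body, library totals, and RPKM values that were recomputed exactly from counts, totals and lengths. The submitters' processing notes name Bowtie 1.1.2, bedtools 2.28 and the builds mm10 and dm3, with no roles; the counting program and its strand setting are not given in the sources used here. Per the file headers, the authors' deposited columns also hold a mean signal over libraries, a log2 fold change with its SE, a p-value with its adjusted form, and a percentile score (rank) of merged log2 ratios with 0.1 RPKM added.

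The members and gene lists were chosen with earlier results of these data known. Of 3022 rows, 278 further transcripts of the same genes were left out, leaving 2744 genes. Counts were tested with edgeR 4.0.16 (quasi-likelihood; R 4.3.3), with filterByExpr (minimum count 10, minimum total 15), Benjamini-Hochberg adjustment over all genes and a threshold of 0.05. Library totals set the scale, since the table holds called rows. Head over body was tested as a region by group interaction with library as a block. The SE is the log2 fold change divided by the square root of F. DESeq2 1.42.0, TMM, the authors' size factors, no filter, all rows, a replicate block and leaving out each library were alternatives. Data were simulated with 200 genes changed 2-fold and the same fixed spread for every gene. False calls numbered 6 for the body, 7 for the head and 9 for the ratio. Of the 200 genes, 99% were recovered for the body (2741 genes), 89.5% for the head (2593) and 68.5% for the ratio (2602). These shares do not give the power of the tests in the libraries used here. In those, 2707 of 2721 bodies were called, and head SEs of the members ran from 0.24 (Ell) to 0.35 (Mllt1). Recovery at the spread of these libraries was not tested. Named genes are all 5 members, listed pathway genes with a row, and for each member the 2 genes closest in centred log2 RPM (0.1 RPM added). Depths are given with the results; PCR reads are not independent molecules, so counts carry more error than counting alone.

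The labels do not say whether replicate numbers pair the libraries, and the reported fits did not pair them. Deviations of same-numbered WT and DM libraries correlated at -0.09, -0.18 and 0.30 for bodies and 0.12, 0.00 and 0.05 for heads. These correlations cannot settle whether the libraries were paired.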

Additional observations from a re-analysis of the deposited data

How the results depend on the processing

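For single members, 46 of 60 alternatives for the body, 52 of 60 for the head and 52 of 55 for the ratio kept direction and side of the threshold. TMM factors and DESeq2 each called 1 member higher in the body in place of 3, with Ell at -0.032 and -0.069; both called 1 member lower in the head in place of 0, with 984 and 893 genes called there in place of 524. DESeq2 split the body calls into 874 higher and 1180 lower. For the ratio, 38 genes were called by DESeq2 and 51 with separate TMM factors, in place of 2, and Mllt3 was at 0.15 with the latter. With the replicate block, 1 member in place of 2 was lower in the body, as Mllt1 was lost (edgeR adjusted p 0.0911). The Ell body call was lost as well (edgeR adjusted p 0.0542). With this block 796 genes were called for the head and 38 for the ratio. Whether the replicate numbers pair the libraries is not given. With a library left out, body calls ran from 2 to 3 members higher and from 1 to 2 lower, head calls from 0 to 1 in each direction, and ratio calls were 0. Genes called ran from 2047 to 2652 (body), 14 to 942 (head) and 0 to 82 (ratio). Values that changed sign on leaving out a library ranged from -0.13 (without WT replicate 3; -0.08 without WT replicate 1) to 0.50 for the Ell2 head, from -0.55 to 0.34 (without WT replicate 2) for the Mllt1 head, from -0.26 (without WT replicate 1) to 0.67 for the Mllt1 ratio and from -0.27 to 0.061 (without WT replicate 3) for the Mllt3 ratio. The cause was not tested. A comparison of nested transcripts was not run, since each member has 1 row. Depth limits the Mllt3 head most, with 47 to 126 reads a library.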
